A study of Mus musculus with 15 samples.

Results

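The genes described here make cholesterol from acetyl units, or are controlled by the transcription factor SREBP2, or regulate it, or handle sterols in the liver cell. They form a list of 28 genes, named for their known roles with no measured value in the rule, though earlier results of these data were known when it was drawn up. Of the 28, 27 had a probe set with a single gene symbol, among 18193 genes measured in all. Acat2, which joins acetyl units at the start of the pathway, had none, so its expression is not analysed here. It enters only the search of promoters. All 27 passed the filter on dim signals, which kept 16294 genes.

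Cholesterol is built in the membrane of the endoplasmic reticulum and the cytosol, from acetyl units through mevalonate, isoprenoid diphosphates, squalene and lanosterol. When sterols in that membrane run low, the escort protein SCAP carries SREBP2 to the Golgi, where it is cut, and the released factor switches on nearly every enzyme of the route. When sterols are plentiful, INSIG proteins hold the SCAP and SREBP2 complex back. Hepatocytes are a major site of this control, since they both make cholesterol and export it to bile.

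The data are 15 Affymetrix Mouse Genome 430 2.0 arrays of primary hepatocytes from C57BL/6 mice, kept in HepatoZYME-SFM medium and infected with adenovirus. All 5 groups carried a virus, and each has 3 arrays from experiments described as independent. Whether these came from separate animals is not stated, so the p-values measure the spread between these samples. Ern1 encodes IRE1a, a sensor of stress in the endoplasmic reticulum that has a kinase and an RNase domain. In the 48 hour arm the cells had no further treatment and carried EGFP as the control, IRE1a of the wild type, or IRE1a with the S724A substitution, which puts alanine in place of a serine. In the 72 hour arm they carried a control hairpin (shCON) or a hairpin against IRE1a (shIRE1a#2), and every culture then received glucagon, the fasting hormone, for 4 hours. The 2 arms differ in virus, time and glucagon and were not contrasted.

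Values are GCRMA signals on the log2 scale, and a change is a difference of 2 group means ± SE with n = 3 arrays per group. A gene is said to rise or fall when its adjusted p is under 0.05 in limma's two-sided moderated test, adjusted by Benjamini-Hochberg over the 16294 genes. Whether the arrays of 2 groups overlap is given as a description, and its share over all genes was not counted. Srebf2 with wild-type IRE1a, for example, did not overlap EGFP at an adjusted p of 0.380 in that test. Array medians lay between 5.69 and 5.83. In every group, all 6 measured hepatocyte markers had mean signals of 10.97 or more. Of the 6 macrophage markers, Cd68 was bright, with a mean of 11.66 in EGFP, 12.07 in wild-type and 11.95 in S724A cells. The other 5, Adgre1, Clec4f, Cd5l, Csf1r and Marco, stayed between 3.72 and 7.12 on every array. The summed linear signal of the 6 was 3263 to 3773 with EGFP, 4402 to 4727 with wild-type and 3781 to 4430 with S724A IRE1a, and its part in the results was not tested. Cd68 makes up most of that sum: against EGFP, 3 of the 6 were higher with wild-type (median -0.02) and 2 with S724A IRE1a (median -0.13). Endothelial and stellate markers were higher in 3 of 5 and 1 of 4 with wild-type IRE1a, and in 0 of each with S724A. All 5 endothelial markers were higher with wild-type than with S724A IRE1a. Cholangiocyte, lymphocyte and erythroid markers were higher in 2 of 3, 0 of 2 and 0 of 2 with wild-type, and in 1 each with S724A. None of these passed, and their part was not tested. In bulk RNA, fewer cells of a type and less RNA per cell cannot be told apart.

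Ern1 read 8.89, 8.96 and 9.10 with the control hairpin and 7.60, 7.44 and 7.51 with the IRE1a hairpin, so the groups were well apart. It fell by 1.47 ± 0.19, or 2.76-fold lower (adjusted p = 0.00293). These values are from its brightest probe set, the only 1 of 5 that passed. The others differed by -0.58, -0.43, -0.65 and 0.35. In the 48 hour arm Ern1 read 9.41, 8.68 and 8.81 with EGFP and 9.30, 8.89 and 9.07 with wild-type IRE1a. With S724A IRE1a it read 9.68, 9.04 and 9.54, and the 3 groups overlapped. The differences from EGFP were 0.12 ± 0.19 (adjusted p = 0.775) and 0.46 ± 0.19 (adjusted p = 0.159). The second passed when the replicate number entered as a block (adjusted p = 0.0215) and without EGFP array 1 (0.68 ± 0.17, adjusted p = 0.0362). Of the 5 Ern1 probe sets, 1 was higher and 4 lower with wild-type IRE1a. With S724A IRE1a 3 were higher and 2 lower. The Ern1 signal on this array is therefore no check of the overexpression, because where the probes lie relative to the viral insert was not analysed here.

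**Figure D1:**
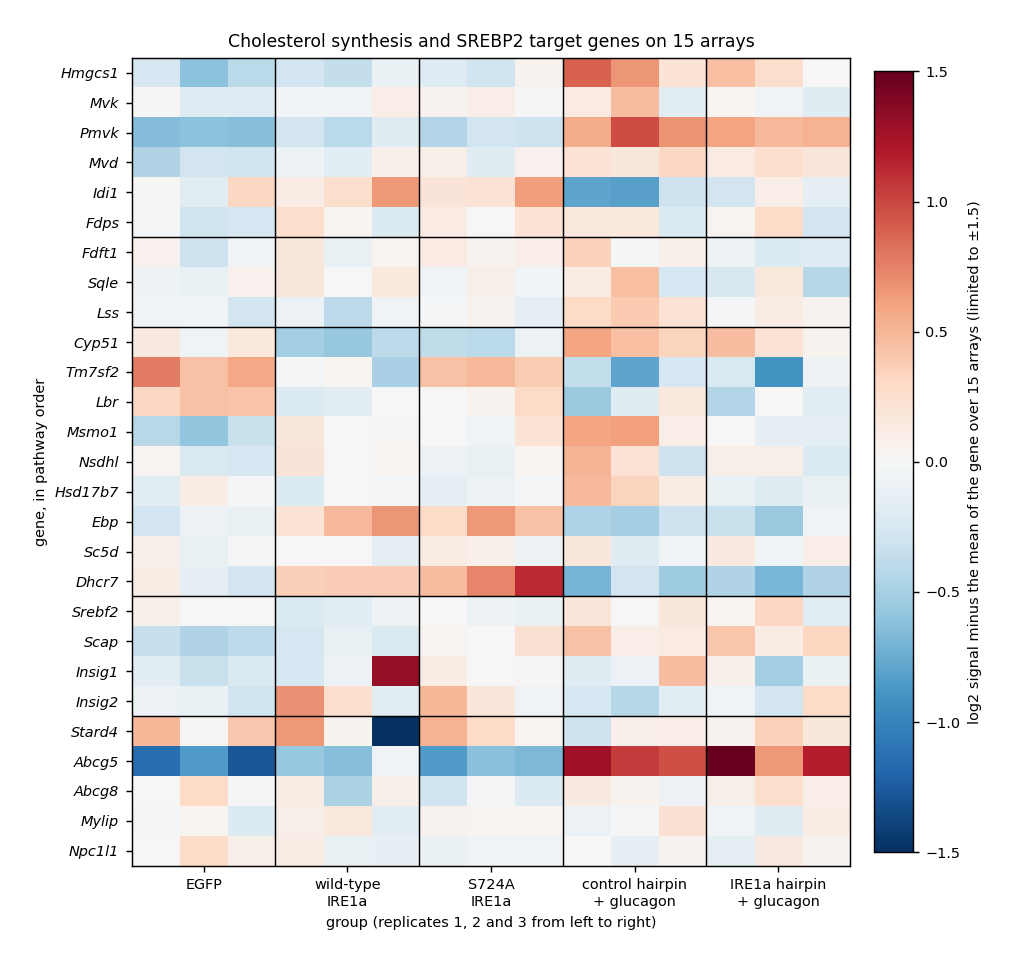
Signal of the 27 genes on all 15 arrays, as log2 signal minus the gene's own mean over the arrays, with genes in pathway order and arrays grouped by virus. Colours stop at 1.5 above or below the mean. Within the 48 hour arm, Msmo1, Ebp and Dhcr7 are redder with either IRE1a virus than with EGFP, and Cyp51 is bluer. Array 3 of the wild-type group stands out for Insig1 (9.24) and Stard4 (6.10).

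Wild-type IRE1a was set against EGFP to see what extra IRE1a does to gene expression in these cells. Of the 27 genes, 2 rose and 2 fell, and all 4 act between lanosterol and cholesterol. Msmo1 and Ebp rose 1.42-fold and 1.53-fold, while Cyp51 and Tm7sf2 were 1.48-fold and 1.69-fold lower. None of the upstream enzymes, of the SREBP2 regulators or of the transport genes passed. Over all tested genes 5.08% rose and 2.59% fell, so a count of 2 of 27 in each direction lies near that background. At an unadjusted p under 0.05 there were 9 of the 27, against 3486 of the 16294 genes. The 27 had a median change of 0.14, with 17 higher and 10 lower, against a median of 0.00 over all genes. With the replicate number as a block, 7 passed (4 rose, 3 fell), and so did 2539 of all genes in place of 1250.

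Of the 9 enzymes that turn lanosterol into cholesterol, 2 rose, 2 fell and 5 did not pass. Cyp51, the lanosterol demethylase and the first of them, read 9.11, 8.93 and 9.13 with EGFP and 8.47, 8.41 and 8.58 with wild-type IRE1a. Each wild-type array was below each EGFP array. It fell by 0.57 ± 0.13 (adjusted p = 0.0118), and its adjusted p was 0.05095 without EGFP array 3. The other 2 Cyp51 probe sets were also lower, by 0.58 ± 0.17 and 0.25 ± 0.16, without passing.

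The next step, reduction of the bond that the demethylase leaves, can be done by Tm7sf2 or by Lbr, which is also a lamin receptor of the inner nuclear membrane. For Tm7sf2 the EGFP signals were 9.73, 9.40 and 9.53 and the wild-type signals 8.93, 8.99 and 8.48. The groups did not overlap, and it fell by 0.75 ± 0.20 (adjusted p = 0.0347). The adjusted p rose past 0.05 when any one was left out of EGFP arrays 1, 2 and 3 or wild-type arrays 1 and 3, to between 0.05055 (without wild-type array 1) and 0.149 (without wild-type array 3, change -0.59 ± 0.21). Lbr read 10.28, 10.40 and 10.39 with EGFP against 9.76, 9.79 and 9.97 with wild-type IRE1a, again without overlap. Its difference of -0.52 ± 0.16 missed the threshold (adjusted p = 0.0662) and passed with the replicate block (adjusted p = 0.00752). It also passed without shCON array 1 (0.0318) or 3 (0.0308), which enter through the shared spread.

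Msmo1 and Ebp lay higher. Msmo1, the oxidase that begins the removal of the remaining methyl groups, read 10.07, 9.90 and 10.16 with EGFP and 10.66, 10.47 and 10.50 with wild-type IRE1a. It rose by 0.50 ± 0.13 (adjusted p = 0.0334), with every wild-type array above every EGFP array. Leaving out any one of the 6 arrays of the 2 groups ended the call, with adjusted p from 0.0507 (without EGFP array 3) to 0.146 (without EGFP array 2, change 0.43 ± 0.15). Its second probe set stayed between 3.53 and 4.28 on all arrays, close to the filter of 4, and the mean of the 2 probe sets differed by 0.27 ± 0.11 (adjusted p = 0.165).

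Ebp, the sterol isomerase, read 10.35, 10.55 and 10.52 with EGFP and 10.85, 11.12 and 11.30 with wild-type IRE1a. The groups were apart and Ebp rose by 0.61 ± 0.14 (adjusted p = 0.0169). The call was lost without EGFP array 1 (adjusted p = 0.0638), wild-type array 2 (0.0547) or wild-type array 3 (0.0802). Dhcr7, the reductase that makes cholesterol itself, read 8.64, 8.38 and 8.24 against 8.87, 8.89 and 8.89. All 3 wild-type arrays lay above EGFP, by 0.46 ± 0.16 (adjusted p = 0.0917). Nsdhl, Hsd17b7 and Sc5d, a dehydrogenase, a keto reductase and a desaturase of the same stretch, differed by 0.22, -0.05 and -0.03, and their groups overlapped. The other Hsd17b7 probe sets differed by 0.19, 0.06 and 0.08, so its direction was not shared.

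**Figure D2:**
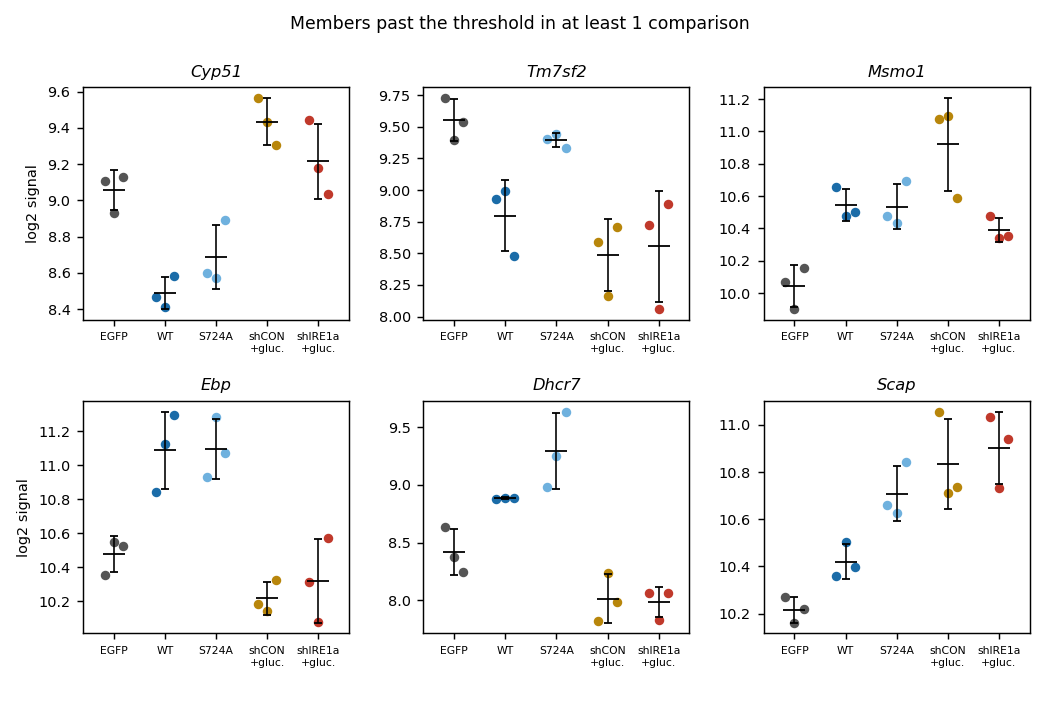
Log2 signal of the 6 genes that passed the threshold in at least 1 comparison, for each of the 3 arrays of the 5 groups (points), with the mean (long line) and SD (bars). Cyp51 and Tm7sf2 lie lower with wild-type IRE1a than with EGFP, Msmo1 and Ebp lie higher with either IRE1a virus, and Dhcr7 and Scap are highest of the 48 hour arm with S724A. Each panel has its own axis.

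The 6 measured enzymes from acetyl units to farnesyl diphosphate were all higher with wild-type IRE1a, by small amounts, and none passed. Their median change was 0.26. Pmvk, the second of the mevalonate kinases, read 7.997, 8.02 and 8.01 against 8.35, 8.24 and 8.46, a difference of 0.34 ± 0.11 (adjusted p = 0.0739) with no overlap. It passed without shCON array 2 (adjusted p = 0.0393). Mvd, which decarboxylates mevalonate diphosphate, read 6.15, 6.32 and 6.30 against 6.52, 6.44 and 6.68 (0.29 ± 0.10, adjusted p = 0.108). Hmgcs1 (the synthase that precedes mevalonate), Mvk (mevalonate kinase), Idi1 (the isoprenoid isomerase) and Fdps (farnesyl diphosphate synthase) differed by 0.17, 0.13, 0.29 and 0.22, each with overlapping arrays. Fdft1, squalene synthase, and Sqle, squalene epoxidase, each differed by 0.14, and Lss, which closes the rings of lanosterol, by -0.05.

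Srebf2, the gene of SREBP2, read 7.82, 7.75 and 7.75 with EGFP and 7.53, 7.58 and 7.67 with wild-type IRE1a, a difference of -0.18 ± 0.11 (adjusted p = 0.380). Its second probe set was nearly as bright (mean 7.58 against 7.75) and differed by 0.02 ± 0.17, so the direction was not shared. Scap, the escort, differed by 0.20 ± 0.11. Insig2 read 11.70, 11.70 and 11.49 against 12.48, 12.05 and 11.62, so wild-type array 3 lay among the EGFP arrays. Its difference of 0.42 ± 0.20 (adjusted p = 0.249) passed with the replicate block (adjusted p = 0.0357), and all 3 of its probe sets were higher.

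Insig1 and Stard4 each turned on 1 array. Insig1, itself known as a target of SREBP2, read 7.75, 7.59 and 7.70 with EGFP but 7.66, 7.84 and 9.24 with wild-type IRE1a, and its difference of 0.56 ± 0.31 became 0.07 ± 0.19 without wild-type array 3. Stard4, a carrier of sterols between membranes, read 9.53, 9.04 and 9.43 against 9.67, 9.07 and 6.10. On the same wild-type array 3 its other 2 probe sets read 7.65 and 8.36. The difference was -1.05 ± 0.60 (adjusted p = 0.347) and 0.04 ± 0.21 without that array.

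Abcg5 and Abcg8 form the pair that pumps sterols into bile. Abcg5 read 5.22, 5.51 and 5.07 with EGFP and 5.79, 5.71 and 6.31 with wild-type IRE1a, all 3 above. Its difference of 0.67 ± 0.21 (adjusted p = 0.0638) passed with the replicate block (adjusted p = 0.0228) and without shIRE1a array 1 (0.0389) or 2 (0.0255). Abcg8 read 7.49, 7.79 and 7.46 against 7.60, 7.01 and 7.57 (-0.19 ± 0.15), with overlap. Mylip, a ubiquitin ligase that marks lipoprotein receptors for breakdown, and Npc1l1, a sterol importer known mainly from the intestine, differed by 0.09 and -0.17 without passing.

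S724A IRE1a was set against the same EGFP arrays, so the 2 comparisons share their controls and are not independent. Of the 27 genes 4 rose and none fell: Dhcr7 by 1.83-fold, Ebp by 1.54-fold, and Scap and Msmo1 by 1.41-fold each. Across all genes 3.87% rose and 2.25% fell. At an unadjusted p under 0.05 there were 7 of the 27, against 3912 of the 16294 genes, which is close to the same share. Their median change was 0.16, with 19 higher and 8 lower, against -0.01 over all genes. With the replicate block 6 passed (5 rose, 1 fell), and of all genes 2347 in place of 997.

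Dhcr7 had the largest change among the 27 here. Its S724A signals were 8.98, 9.25 and 9.63, each above the EGFP signals of 8.64, 8.38 and 8.24. It rose by 0.87 ± 0.16 (adjusted p = 0.00378). The rise passed under every alternative setting and without any one of the 15 arrays, with a highest adjusted p of 0.0245.

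Ebp read 10.93, 11.29 and 11.07 with S724A and rose by 0.62 ± 0.14 (adjusted p = 0.0197), apart from the EGFP arrays. Without EGFP array 1, EGFP array 2, S724A array 2 or S724A array 3 its adjusted p lay between 0.0523 and 0.0987. Msmo1 read 10.47, 10.44 and 10.70 and rose by 0.49 ± 0.13 (adjusted p = 0.0434). It missed the threshold without any one of the EGFP or S724A arrays, or of wild-type array 2 and shIRE1a arrays 1 and 3, which enter through the shared spread. Its adjusted p then lay between 0.05195 and 0.180, and it was 0.134 for its probe sets averaged. Cyp51 read 8.60, 8.57 and 8.89, all below EGFP. The difference of -0.37 ± 0.13 (adjusted p = 0.0968) passed with the replicate block (adjusted p = 0.0201). Tm7sf2 read 9.40, 9.44 and 9.34, overlapping EGFP, with a difference of -0.16 ± 0.20. Lbr read 9.97, 10.01 and 10.25 (-0.27 ± 0.16, adjusted p = 0.313).

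Of the 4 listed genes of SREBP2 and its regulation, Scap passed. Its signals were 10.27, 10.16 and 10.22 with EGFP and 10.66, 10.63 and 10.84 with S724A IRE1a, without overlap. It rose by 0.49 ± 0.11 (adjusted p = 0.0200). The call was lost without EGFP array 2 (adjusted p = 0.0860), EGFP array 3 (0.0587) or S724A array 3 (0.0908), and for its 2 probe sets averaged (0.41 ± 0.13, adjusted p = 0.0714). Srebf2, Insig1 and Insig2 differed by -0.09, 0.28 and 0.37, and none passed. The second Srebf2 probe set went the other way, by 0.29 ± 0.17, without passing.

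The early enzymes were again all higher, with a median of 0.29 and none past the threshold. Mvd read 6.69, 6.43 and 6.66, above the EGFP arrays by 0.33 ± 0.10 (adjusted p = 0.0679), and passed with the replicate block (adjusted p = 0.0479). Pmvk and Fdps also lay above every EGFP array, by 0.29 ± 0.11 (adjusted p = 0.123) and 0.31 ± 0.16 (adjusted p = 0.253). Fdft1, Sqle and Lss differed by 0.19, 0.03 and 0.09. Stard4, Abcg5, Abcg8, Mylip and Npc1l1 differed by -0.02, 0.37, -0.27, 0.11 and -0.20.

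**Figure D3:**
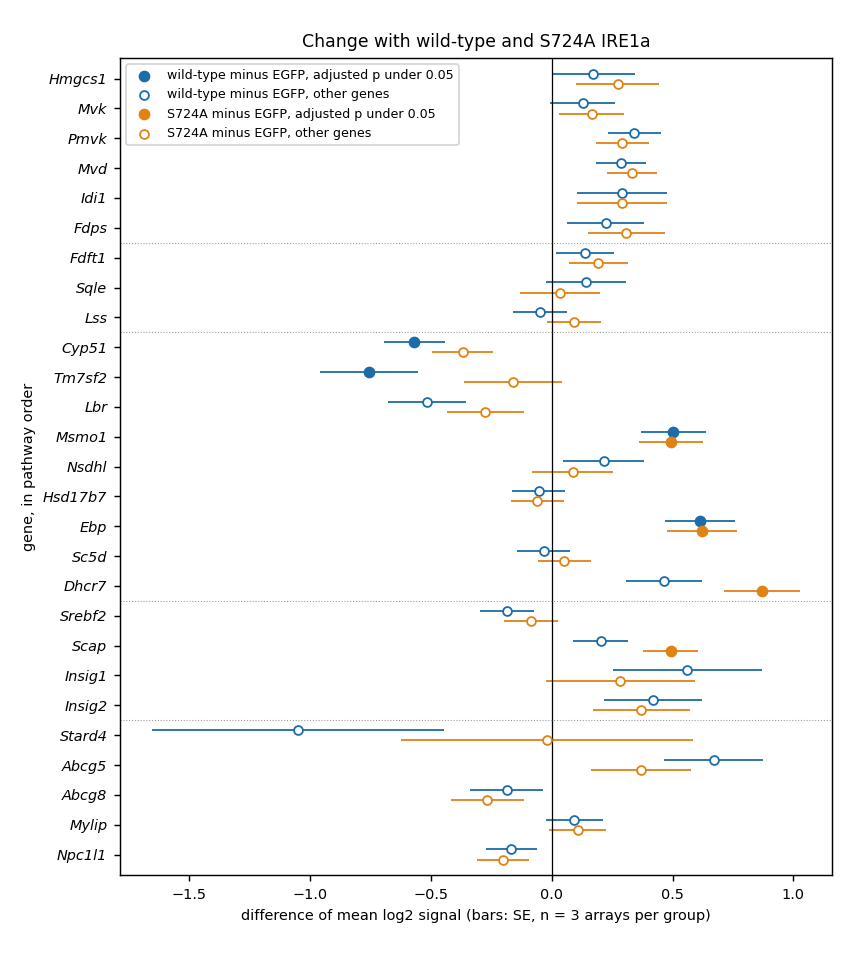
Change of each of the 27 genes with wild-type (blue) and S724A IRE1a (orange) against the same 3 EGFP arrays, as a difference of mean log2 signal with SE bars. Filled points passed the threshold. The 6 early enzymes at the top all lie right of 0 for both viruses but none is filled, and the filled points sit between Cyp51 and Scap.

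The wild-type and S724A groups were compared directly, because a gene called against EGFP in only one of them is not thereby shown to differ between them. No member passed in limma's test, and of all genes 0% were higher and 0% lower at the threshold. At an unadjusted p under 0.05 there were 3 of the 27 and 997 of all genes. The 27 had a median difference of -0.04 against 0.03 over all genes.

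These 3 were Tm7sf2, Dhcr7 and Scap, each lower with wild-type than with S724A IRE1a. Their arrays did not overlap, which adds no support for genes picked by their p. Tm7sf2 differed by -0.60 ± 0.20, with a 95% confidence interval from -1.03 to -0.16 (adjusted p = 0.801). For Dhcr7 the difference was -0.40 ± 0.16 (interval -0.74 to -0.07, adjusted p = 0.801) and for Scap -0.29 ± 0.11 (interval -0.53 to -0.04, adjusted p = 0.803). For the genes called with both viruses the intervals spanned 0: -0.28 to 0.30 for Msmo1 and -0.32 to 0.30 for Ebp. The Cyp51 interval was -0.47 to 0.07.

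The hairpin against IRE1a was compared with the control hairpin, both with glucagon, to see the effect of less IRE1a. None of the 27 genes passed in limma's test. Over all genes 0.0491% rose and 0.184% fell, which is 8 and 30 genes. At an unadjusted p under 0.05 there were 5 of the 27 and 1260 of all genes. The 27 had a median of -0.05 against 0.02 over all genes, with 17 lower and 10 higher. With the replicate block 1 member passed, Msmo1, and 200 genes in all in place of 38.

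Those 5 were Msmo1, Hsd17b7, Fdft1 and Lss, which were lower with the IRE1a hairpin, and Idi1, which was higher. Msmo1 read 11.08, 11.10 and 10.59 with the control hairpin and 10.48, 10.34 and 10.35 with the IRE1a hairpin, so the lowest control array lay just above the highest knockdown array. The difference was -0.53 ± 0.13 (adjusted p = 0.184). It passed with the replicate block (adjusted p = 0.0488) and without control array 3 (-0.70 ± 0.12, adjusted p = 0.0194).

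Hsd17b7 read 8.73, 8.58 and 8.35 with the control hairpin and 8.14, 8.06 and 8.14 with the IRE1a hairpin. These groups were apart as well, with a difference of -0.44 ± 0.11 (adjusted p = 0.174). The other Hsd17b7 probe sets differed by -0.44, -0.25 and 0.16, without passing. Idi1 read 9.23, 9.21 and 9.71 against 9.73, 10.12 and 9.88, and was the one early enzyme on the higher side (0.53 ± 0.19, adjusted p = 0.488). Fdft1 differed by -0.28 ± 0.12 and Lss by -0.26 ± 0.11, each with all knockdown arrays below the control arrays (adjusted p = 0.612 and 0.613). The other Fdft1 probe sets, all dimmer, differed by -0.18, 0.18 and 0.20, while all 3 probe sets of Lss were lower. The third enzyme of that stretch, Sqle, differed by -0.27 ± 0.17 with overlap.

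The other 5 early enzymes were lower by small amounts, from -0.35 ± 0.17 for Hmgcs1 (adjusted p = 0.660) to -0.03 ± 0.16 for Fdps. Cyp51, Tm7sf2, Lbr, Nsdhl, Ebp, Sc5d and Dhcr7 differed by -0.22, 0.07, -0.01, -0.16, 0.10, 0.08 and -0.03. Srebf2, Scap, Insig1 and Insig2 differed by -0.06, 0.07, -0.24 and 0.26. The second Srebf2 probe set differed by -0.34 ± 0.17, without passing. Stard4, Abcg5, Abcg8, Mylip and Npc1l1 differed by 0.23, 0.03, 0.12, -0.08 and 0.04. The direction with the hairpin was opposite to that with wild-type IRE1a for 17 of the 27 genes (63%), and for 56% of all genes. Against S724A IRE1a it was opposite for 17 of the 27 (63%) and for 62% of all genes.

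**Figure D4:**
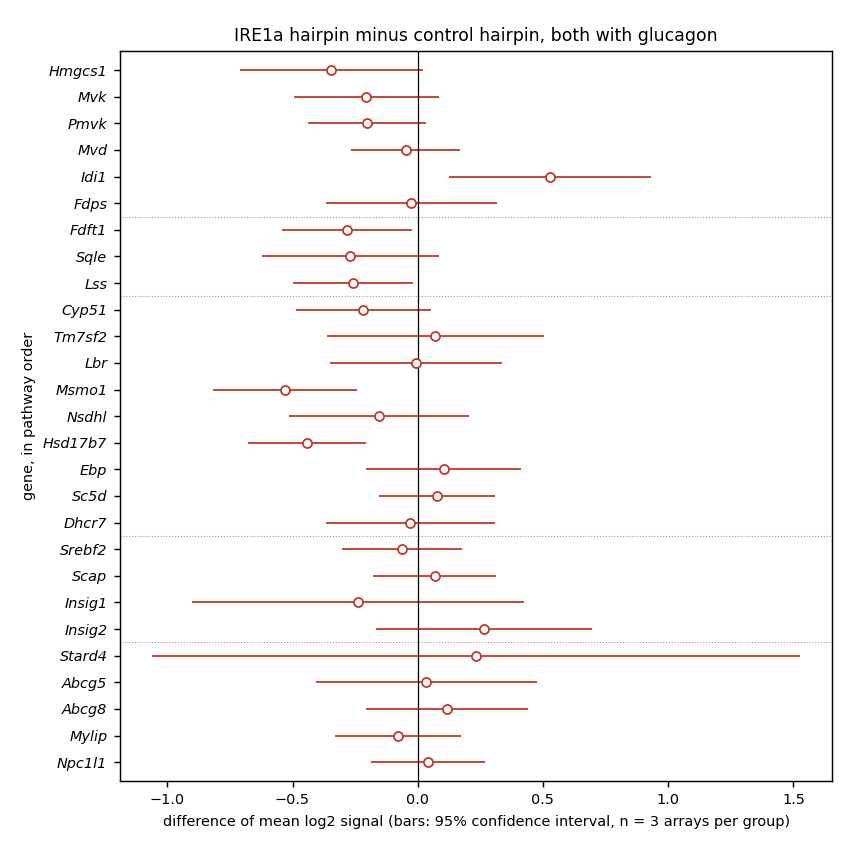
Change of each of the 27 genes with the IRE1a hairpin against the control hairpin, both with glucagon, as a difference of mean log2 signal with 95% confidence intervals not adjusted for multiple tests. No gene passed the threshold. The intervals of Msmo1, Hsd17b7, Fdft1 and Lss lie below 0 and that of Idi1 above it.

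The promoters of these genes were searched in RefSeq's table of assembly GRCm38.p6, which gave 24 of the 28 listed genes a window from 250 bases before to 50 bases after a start. The relaxed sterol element TCACNCCA was found, on either strand, in Hmgcs1, Msmo1 and Srebf2, or 3 of 24, against 4.97% of all 27025 genes in the table. The strict form ATCACCCCA, which contains the relaxed one, was found in Srebf2 alone, against 0.318% of genes. The NF-Y box CCAAT, for a factor known to bind beside SREBP2, was found in 22 of 24 against 41.1%, and the GC box GGGCGG in 20 of 24 against 38.2%. The window of Abcg5 and a window of Abcg8 overlap by 209 bases, and the one NF-Y box of Abcg5 is also counted for Abcg8. The XBP1 element TGACGTGG and the ER stress element, whose first letters are an NF-Y box, were in none of the 24, against 0.714% and 0.137%. A match is only a run of letters, and a missing one says only that these letters are not in this window.

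The 3 sterol elements are shown with the bases around them, in capitals, in the direction of transcription, to let the letters be compared. That of Msmo1 lies 177 to 170 bases before the start, that of Hmgcs1 137 to 130 and that of Srebf2 162 to 155. The stretches are at chr13:119690198-119690237 (plus strand) for Hmgcs1, chr8:64733732-64733771 (minus strand) for Msmo1 and chr15:82147091-82147130 (plus strand) for Srebf2, all in GRCm38.p6. Hmgcs1 and Srebf2 were chosen after the matches were seen.
Hmgcs1: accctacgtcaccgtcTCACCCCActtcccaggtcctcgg
Msmo1: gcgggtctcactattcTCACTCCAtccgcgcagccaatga
Srebf2: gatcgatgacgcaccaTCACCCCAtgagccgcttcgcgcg

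Msmo1 was the one gene past the threshold in some comparison whose window held a sterol element, so its 250 bases before the start are given whole, at chr8:64733579-64733828 on the minus strand. The capitals again mark the relaxed sterol element. The window also held 3 NF-Y boxes and 2 GC boxes.
Msmo1 upstream: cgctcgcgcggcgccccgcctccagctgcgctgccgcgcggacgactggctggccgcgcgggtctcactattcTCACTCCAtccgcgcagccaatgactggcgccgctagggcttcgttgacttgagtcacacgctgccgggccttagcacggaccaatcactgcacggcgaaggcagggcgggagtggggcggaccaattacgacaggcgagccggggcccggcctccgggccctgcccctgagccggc

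Genes next to the pathway were read from lists that hold none of the 27. Of 9 tested genes of SREBP processing and sterol-driven degradation, 1 fell with wild-type IRE1a and 1 rose with S724A. Rnf139, a ubiquitin ligase of the endoplasmic reticulum, read 10.66, 10.41 and 10.54 with EGFP and 10.02, 10.09 and 10.01 with wild-type IRE1a. It fell by 0.50 ± 0.09 (adjusted p = 0.00305), while the mean over its probe sets differed by -0.31 ± 0.11 (adjusted p = 0.120). Mbtps1, the first protease to cut SREBPs, read 8.94, 8.68 and 8.73 with EGFP and 9.30, 9.26 and 9.53 with S724A, and rose by 0.58 ± 0.13 (adjusted p = 0.0176). It no longer passed without EGFP array 2 (0.0881), EGFP array 3 (0.0637) or S724A array 3 (0.0820), or with its probe sets averaged (0.0956). With wild-type IRE1a it read 9.13, 9.26 and 9.31, a difference of 0.45 ± 0.13 (adjusted p = 0.05095) that passed with the replicate block (0.0153). It also passed without EGFP array 1, S724A array 3 or shCON array 1 or 3, with adjusted p from 0.0266 to 0.0493.

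Of 7 genes of the non-sterol isoprenoid branch, 1 rose and 1 fell with wild-type IRE1a, and 1 rose with S724A. Unadjusted p was under 0.05 for 3 of the 7 with wild-type IRE1a and 4 with S724A, against 3486 and 3912 of 16294 genes. Dhdds, which makes the precursor of the sugar carrier dolichol, read 8.60, 8.57 and 8.60 with EGFP, 8.9985, 9.12 and 8.93 with wild-type and 9.04, 9.20 and 9.05 with S724A IRE1a. It rose by 0.43 ± 0.10 (adjusted p = 0.0172) and 0.51 ± 0.10 (adjusted p = 0.00714), and the first call was lost without EGFP array 2 (0.0628), EGFP array 3 (0.0502) or wild-type array 2 (0.0723). Coq2, of ubiquinone synthesis, fell by 0.51 ± 0.14 with wild-type IRE1a (adjusted p = 0.0437). It missed the threshold without any one of the 9 arrays of the 48 hour arm or shIRE1a array 3, with adjusted p from 0.0537 to 0.132.

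Of 12 genes of SREBP1 and fatty acid synthesis, 1 fell with wild-type IRE1a and none passed with S724A, where 3 had an unadjusted p under 0.05 (3912 of the 16294 genes did). With wild-type IRE1a 3 of the 12 also had one, against 3486 of the 16294 genes. Me1, malic enzyme, which supplies reducing power for fatty acids, read 11.63, 11.40 and 11.69 with EGFP and 11.03, 10.78 and 10.89 with wild-type IRE1a, and fell by 0.67 ± 0.14 (adjusted p = 0.00823). With S724A it read 11.16, 10.94 and 11.15. That difference of -0.49 ± 0.14 (adjusted p = 0.0546) passed with the replicate block (0.00498) and without shIRE1a array 2 (0.0204).

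Of 12 genes of esterification, efflux and lysosomal handling, 1 rose with wild-type IRE1a, and 1 rose and 1 fell with S724A. Unadjusted p was under 0.05 for 3 of the 12 with each virus, against 3486 and 3912 of 16294 genes. Osbp, the oxysterol binding protein, read 9.67, 9.54 and 9.67 with EGFP, 10.003, 10.21 and 10.44 with wild-type and 10.08, 10.22 and 10.22 with S724A IRE1a. It rose by 0.59 ± 0.13 (adjusted p = 0.00919) and 0.55 ± 0.13 (adjusted p = 0.0185), and the second call was lost without EGFP array 2 (0.0894), S724A array 2 (0.0780) or S724A array 3 (0.0680). Vldlr, a lipoprotein receptor, read 8.44, 8.86 and 9.18 with EGFP and 6.58, 7.61 and 7.36 with S724A, and fell by 1.65 ± 0.43 (adjusted p = 0.0362). Without EGFP array 2 or 3, or any one S724A array, its adjusted p lay between 0.0544 and 0.125. With wild-type IRE1a it read 7.37, 7.50 and 8.05, and its difference of -1.19 ± 0.43 (adjusted p = 0.115) passed with the replicate block (0.000415).

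None of 8 other reported SREBP2 targets passed with either virus, and their median changes were 0.08 and 0.09. With each virus 2 of the 8 had an unadjusted p under 0.05, against 3486 of 16294 genes with wild-type and 3912 with S724A IRE1a. In the knockdown, no gene of these 5 lists passed in limma's test. At an unadjusted p under 0.05 there was 1 gene in each of the first 4 lists and 0 among the other SREBP2 targets. Of all 16294 genes, 1260 did so. Among the listed genes, Erlin2 of SREBP processing and sterol-driven degradation read 9.50, 9.80 and 9.28 with the control hairpin. With the IRE1a hairpin it read 8.95, 8.96 and 8.86, without overlap. Its difference of -0.60 ± 0.12 just missed the threshold (adjusted p = 0.0512) and was not tried under the alternative settings.

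**Figure D5:**
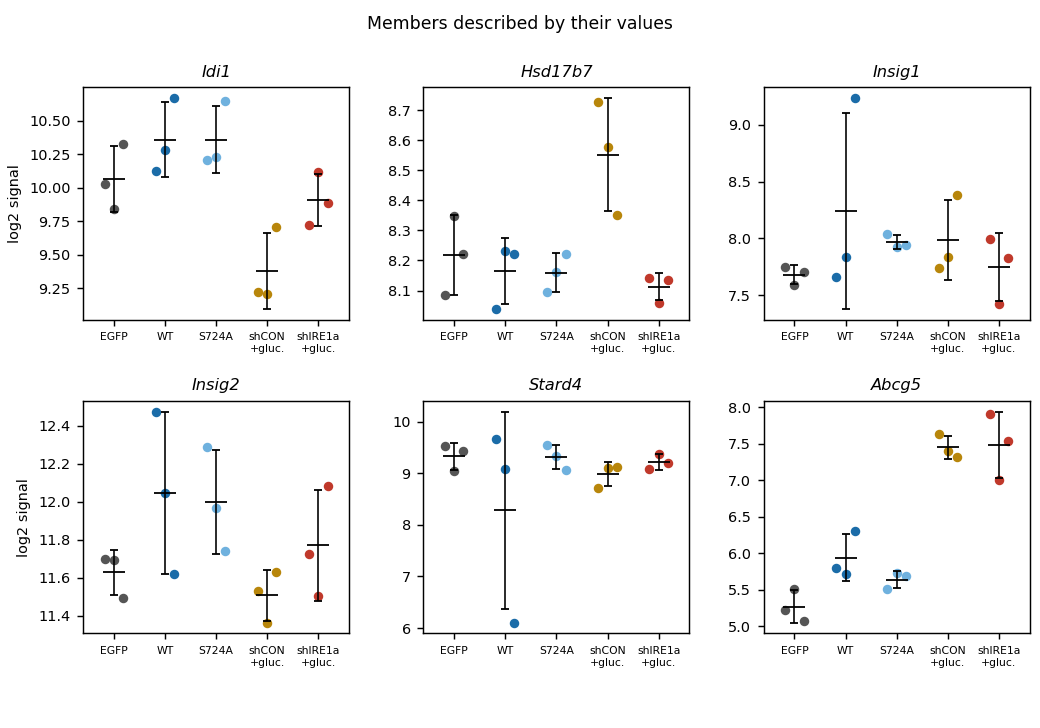
Log2 signal of 6 genes described by their arrays but not called, with the 3 arrays (points), mean (long line) and SD (bars) of each group. Wild-type array 3 carries the difference for Insig1 (9.24) and Stard4 (6.10). Hsd17b7 is lower and Idi1 higher with the IRE1a hairpin than with the control hairpin. Each panel has its own axis.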

How the data were processed

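RNA of 15 hepatocyte cultures was measured on Affymetrix Mouse Genome 430 2.0 arrays. The table deposited by the authors holds a log2 signal for each probe set on each array, made with GCRMA (no version named), per the submitters' processing notes. The log2 scale was read from the values, which run from 1.91 to 14.80.

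Of 45101 probe sets, 64 controls, 932 with several symbols and 9160 with none were left out of naming. Of the 34945 with 1 symbol in the platform annotation, 34741 matched the RefSeq gene table of GRCm38.p6. The probe set with the highest mean over the 15 arrays stood for a gene. Genes at 4 or more on at least 3 arrays were tested, in R 4.3.3 with limma 3.58.1: 5 group means, all 15 arrays, 10 residual degrees of freedom, lmFit and eBayes. Blocks, scalings, filters, a floor of 4, the variance model, the probe set rule and each array left out were the alternatives. Precision is limited by the number of arrays: a change's 95% interval reached, in the median, to either side by 0.30 over all genes and 0.31 over the members. The script was tested on simulated data.

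The members and lists were chosen with earlier results of these data known. Named were all 28 members, Ern1, and up to 4 genes past the threshold from each related list, by smallest p. Erlin2 was added after its knockdown value, close to the threshold, was seen. Same-numbered arrays deviated together within an arm: all 12 pairs correlated at r from 0.20 to 0.69 over genes. Across the arms 4 of 18 pairs exceeded 0.1. The labels tie the replicate numbers to no shared experiment, so the main test did not use this pairing. All calls rest on that unpaired test. The replicate block within each arm, drawn from the data, was an alternative, given beside the results where it changed a call.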

Additional observations from a re-analysis of the deposited data

How the results depend on the processing

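With 3 arrays per group, most calls sat near the threshold. With the replicate block within each arm, the members called numbered 7 for wild-type IRE1a (4 without it), 6 for S724A (4), 0 for wild-type against S724A (0) and 1 for the knockdown (0). The block changed no call of a member beyond those given beside the results. Leaving out 1 array gave 1 to 5 members for wild-type, 1 to 4 for S724A, 0 for the direct comparison and 0 to 1 for the knockdown. The mean of all probe sets of a gene gave 2 for S724A. Quantile normalisation ended the calls of Msmo1 with wild-type (adjusted p = 0.0627) and of Msmo1 (0.0878) and Scap (0.0507) with S724A. It made calls of Lbr (0.0420) and Abcg5 (0.0469) with wild-type and of Cyp51 (0.0323) with S724A, and the 6 arrays alone made one of Lbr (0.0310), as did the shared block (0.0173). Among the related genes, quantile normalisation ended the calls of Dhdds (0.0648 with wild-type, 0.0542 with S724A) and made calls of Rnf139 (0.0293) and Me1 (0.0285) with S724A. Median centring ended that of Coq2 (0.0776), and trended variances or averaged probe sets that of Vldlr (0.0592 each). The 6 arrays alone made calls of Vldlr with wild-type (0.0214) and Me1 with S724A (0.0427), and the shared block one of Vldlr with wild-type (0.0336). Mbtps1 with wild-type passed with the filter at 6 (0.0401), the floor of 4 (0.0494) and the shared block (0.0457), and Me1 with S724A with trended variances (0.0390) and the filter at 6 (0.0470). No result changed direction while past the threshold.

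Of all genes, 1250 passed for wild-type, 2539 with the block within arms and 715 to 1362 with 1 array left out (lowest without EGFP array 2). For S724A 997 passed, 2347 with the block within arms, 1510 with a block shared by all groups, and 485 to 1220 with 1 array left out. For the direct comparison 0 passed, 2 with the block within arms, 2 with trended and robust variances and 0 to 1 with 1 array left out. For the knockdown 38 passed, 23 with median centring, 5 with its 6 arrays alone, 200 with the block within arms, 64 with the shared block and 13 to 75 with 1 array left out. The share of calls that were higher was 66.2%, 63.3% and 21.1% for wild-type, S724A and knockdown as deposited, 55.3%, 48.3% and 34.6% after quantile normalisation and 70%, 68.3% and 13% after median centring. Probe sets near the filter of 4 cannot show small changes.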

Other observations

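The levels in the 2 arms are given as values only, since the arms differ in virus, time and glucagon and no test was made between them. Abcg5 had group means of 5.27 ± 0.22 (SD, n = 3) with EGFP, 5.94 ± 0.32 with wild-type and 5.64 ± 0.12 with S724A IRE1a. In the 72 hour arm it had means of 7.45 ± 0.16 with the control hairpin and 7.48 ± 0.45 with the IRE1a hairpin. Its partner Abcg8 lay between 7.31 ± 0.14 and 7.64 ± 0.10 in all 5 groups. In GRCm38.p6 the 2 genes run in opposite directions on chromosome 17, and a start of Abcg8 lies 110 bases from that of Abcg5. The RefSeq gene table begins Abcg8 further back, at 84676302, inside Abcg5 (84658174 to 84683011).

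Pmvk had means of 8.01 ± 0.01, 8.35 ± 0.11 and 8.30 ± 0.08 in the 48 hour arm (EGFP, wild-type, S724A) and 9.38 ± 0.22 and 9.17 ± 0.05 in the 72 hour arm (control hairpin, IRE1a hairpin). In the same order Hmgcs1 had 10.41 ± 0.19, 10.58 ± 0.13 and 10.68 ± 0.18, and then 11.41 ± 0.35 and 11.07 ± 0.22. Dhcr7 had 8.42 ± 0.20, 8.88 ± 0.01 and 9.29 ± 0.33, and then 8.02 ± 0.21 and 7.99 ± 0.13. Idi1 had 10.07 ± 0.25, 10.36 ± 0.28 and 10.36 ± 0.25, and then 9.38 ± 0.28 and 9.91 ± 0.20.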
